A study of Solanum lycopersicum with 6 samples.

Results

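The genes described here are 10 genes commonly used as references in real-time PCR of tomato, measured in epicotyls, the stem segment above the cotyledons, of seedlings under negative and positive DIF. They were chosen by identifier, as all probes on the array that are not controls and that carry one of 10 Solyc identifiers. All 10 genes were found, with 11 probes of the 43803 on the array, because UBI3 has a pair of probes and each other gene a single probe. DIF is the day temperature minus the night temperature.

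Negative DIF seedlings were kept at 25°C by day and 30°C by night, and positive DIF seedlings at 30°C by day and 25°C by night. Both treatments lasted 7 d under a 16 h photoperiod, used the same cultivar, Managua RZ, and ended with 14-day-old plants. Each treatment had 3 biological replicates, with 1 single-dye array per replicate. Plants were harvested in the light period, so that negative DIF epicotyls were at 25°C and positive DIF epicotyls at 30°C when collected, and day temperature, temperature at harvest and the sign of DIF cannot be told apart.

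A reference gene serves as the denominator of a relative expression value, so a difference in its own level between treatments passes, with the opposite sign, into every gene divided by it. The 10 genes belong to several kinds of cell machinery. UBI3 encodes ubiquitin, the small protein that marks other proteins for degradation, and was the housekeeping gene of the study's own real-time PCR. EF1a encodes elongation factor 1-alpha, which brings aminoacyl-tRNA to the ribosome. A pair of actin genes encode the subunit of actin filaments, and TUB encodes tubulin, the subunit of the microtubules that guide cellulose deposition in growing plant cells. GAPDH encodes a glycolytic enzyme. CAC encodes a subunit of the clathrin adaptor complexes that form transport vesicles. TIP41 is named after a yeast protein of TOR signalling and SAND after a protein family that acts in vacuolar trafficking in yeast. The gene called Expressed is known as a reference gene only by that name. The array files give identifiers without names, and the names used here are the common ones of these reference genes. The actins are called ACT-11 (Solyc11g005330) and ACT-03 (Solyc03g078400) after the chromosome number in their identifiers.

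Levels are given as the log2 of the processed signal, which is the spot brightness after background subtraction, minus the log2 75th percentile of all probes on the same array. A difference of 1 on this scale is a change by a factor of 2. Brightness depends on the probe, so levels of different probes were not set against each other. Every spot of the 11 probes on the 6 arrays, 66 in all, was well above background, none was saturated and none was left out. In whole epicotyls, a change in RNA per cell and a change in the proportions of cell types cannot be told apart. Negative DIF replicates 1 and 2 were on a slide of their own, and negative DIF replicate 3 was hybridised on the other slide beside all of positive DIF, which leaves slide partly confounded with treatment. The share of probes well above background ranged over 62.2% to 67.0% for negative DIF and 62.6% to 65.4% for positive DIF, and precision is limited by having 3 arrays per treatment.

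None of the 11 probes passed an adjusted p under 0.05 between treatments (limma, Benjamini-Hochberg adjustment over all probes), where 0.920% of all probes, or 403, passed. That count changed with single arrays left out: it was 567 probes without negative DIF replicate 3, 75 without positive DIF replicate 1, and between 0 and 6 without any one of the others. At an unadjusted p under 0.05 in the same fit, 2 of the 11 probes passed, against 18.9% of all probes. They were UBI3 probe 1, which was higher under negative DIF (10.2% of all probes passed in this direction), and TUB, which was lower (8.72%). The arrays of the treatments did not overlap for 5 of the 11 probes, or 45.5%, against 35.7% of the 25326 probes that were well above background on all 6 arrays. The 5 were both UBI3 probes, Expressed, ACT-03 and TUB. A p that misses the threshold does not show a stable gene, and the interval of each difference is therefore given. For 9 of the 11 probes the 95% interval lay within 1 log2 unit of 0 on either side, and for UBI3 probe 1 and TUB it did not.

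**Figure D1:**
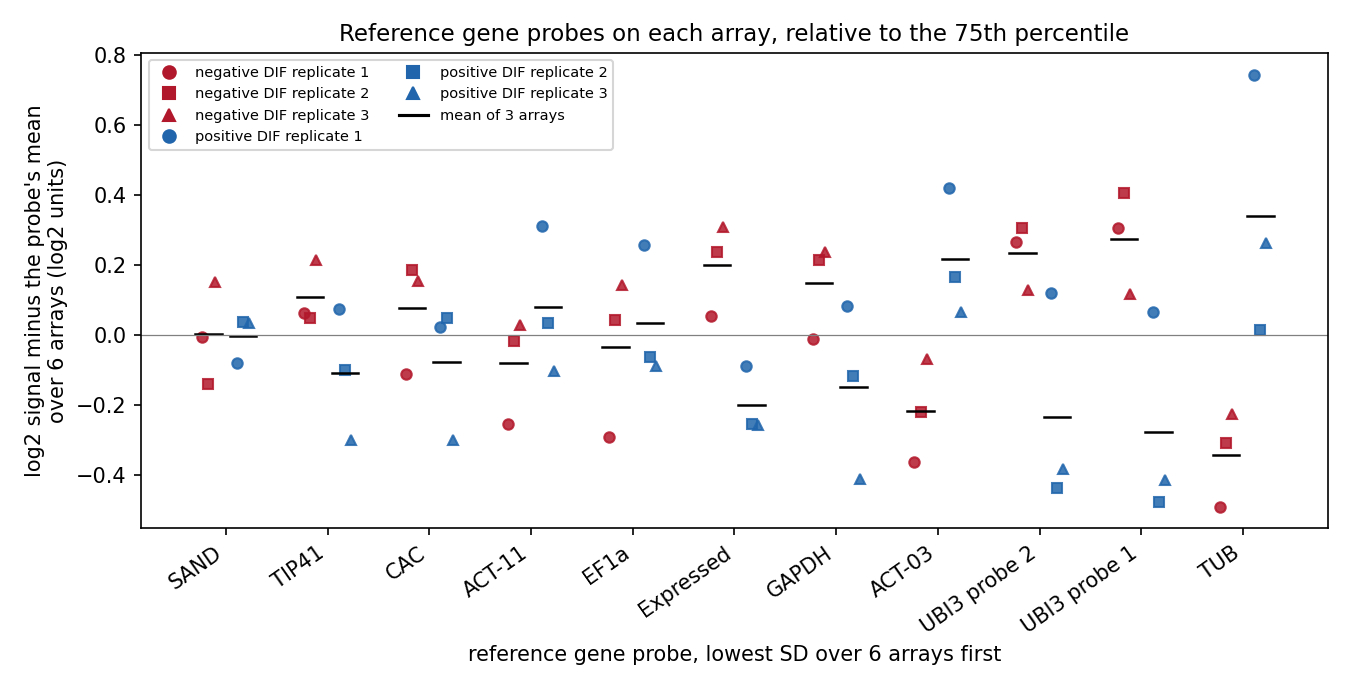
Log2 signal of each of the 11 reference gene probes on each array, relative to the 75th percentile of the array and drawn as the deviation from the probe's mean over the 6 arrays. Probes are ordered by their SD over the 6 arrays, red symbols are negative DIF, blue symbols positive DIF, and bars are means of 3 arrays. SAND (SD 0.10) has nearly the same mean in both treatments, while TUB (SD 0.45) and UBI3 probe 1 (SD 0.37) have separate treatments in opposite directions.

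UBI3 (Solyc01g056940), the ubiquitin gene, gave a higher signal under negative DIF on both of its probes in all settings run other than scaling on UBI3 itself. Probe 1 had log2 levels of 5.68, 5.78 and 5.49 in negative DIF replicates 1 to 3, against 5.44, 4.90 and 4.96 in positive DIF replicates 1 to 3. No negative DIF array reached down to a positive DIF array, but negative DIF replicate 3 and positive DIF replicate 1, on the same slide, were only narrowly apart. The difference was 0.55 ± 0.22 (SE, n = 3 arrays each; 95% interval 0.02 to 1.08), a 1.47-fold higher signal under negative DIF (adjusted p = 0.246 in limma, and 0.043 before adjustment). The unadjusted p was above 0.05 without any one of the replicates other than positive DIF replicate 1 (0.059 to 0.130), with slide as a fixed block (0.290) and with a replicate block (0.083). Over 17 limma settings, the main fit included, it was below 0.05 in 9, where 17.1% to 29.2% of all probes tested passed. Among the 9 were quantile normalization (0.0072) and the deposited log2 table with its single UBI3 value (0.012), where 22.0% and 25.8% of all probes passed. Scaling on UBI3 was among the 17 but could not pass, since it sets the mean of the UBI3 probes to 0. Probe 2 had log2 levels of 5.73, 5.77 and 5.59 in negative DIF replicates, against 5.59, 5.03 and 5.08 in positive DIF replicates, and negative DIF replicate 3 lay above positive DIF replicate 1 only beyond the printed digits. Its difference of 0.47 ± 0.21 (SE; 95% interval -0.05 to 0.99) missed the unadjusted threshold in the main limma fit (adjusted p = 0.309). It passed that threshold in 5 of 16 limma settings, where 17.1% to 27.9% of all probes passed, and here too scaling on UBI3 could not pass. The probes followed each other closely: their log2 ratio had an SD of only 0.06 over the 6 arrays. Before any scaling between arrays the processed signals of probe 1 were 123681, 104216 and 70589 under negative DIF and 64159, 46225 and 45844 under positive DIF, again without overlap, but the 75th percentile itself was higher on every negative DIF array before scaling, so this adds nothing on UBI3. Within the shared slide, negative DIF replicate 3 was 0.39 above the mean of the 3 positive DIF arrays on probe 1 and 0.36 above it on probe 2.

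TUB (Solyc04g081490), the tubulin gene, was the most variable of the 11 probes, and it lay in the opposite direction. Its log2 levels were 2.64, 2.82 and 2.90 in negative DIF replicates 1 to 3, against 3.87, 3.14 and 3.39 in positive DIF replicates 1 to 3. Positive DIF replicate 1 stood highest, and the treatments did not overlap. The difference was -0.68 ± 0.24 (SE, n = 3 arrays each; 95% interval -1.26 to -0.10), or 0.623-fold (adjusted p = 0.204 in limma, and 0.028 before adjustment). Without positive DIF replicate 1 the difference was -0.48. The unadjusted p was above 0.05 without negative DIF replicate 1 (0.072), negative DIF replicate 2 (0.066), positive DIF replicate 1 (0.063) or positive DIF replicate 3 (0.05003), with slide as a fixed block (0.186) and with a replicate block (0.065). Over 17 limma settings, the main fit included, it was below 0.05 in 11, where 15.5% to 29.2% of all probes tested passed. The 11 include scaling on UBI3, which subtracts the difference of UBI3 from that of TUB. The processed signals before scaling were 15032, 13400 and 11759 under negative DIF and 21681, 13713 and 15483 under positive DIF, and these overlapped, so the treatments were separate only after scaling between arrays. Within the shared slide, the difference of negative DIF replicate 3 from the mean of the positive DIF arrays was -0.57.

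The actin genes differed from each other in their spread. ACT-03 had log2 levels of 6.16, 6.30 and 6.45 in negative DIF replicates, against 6.94, 6.69 and 6.59 in positive DIF replicates. The treatments did not overlap, negative DIF being the lower, with a difference of -0.44 ± 0.19 (SE; 95% interval -0.89 to 0.02; adjusted p = 0.286, limma). ACT-03 had an unadjusted p under 0.05 in 8 of 17 limma settings, the main fit not among them. Between 17.5% and 29.2% of all probes tested passed in those 8. They include scaling on UBI3, which subtracts the difference of UBI3 from that of ACT-03. ACT-11 had log2 levels of 5.04, 5.27 and 5.32 in negative DIF replicates, against 5.60, 5.32 and 5.18 in positive DIF replicates. Here the treatments overlapped, and the difference was -0.16 ± 0.20 (SE; 95% interval -0.64 to 0.31; adjusted p = 0.761, limma), with -0.046 without positive DIF replicate 1, -0.075 without negative DIF replicate 1 and -0.25 without positive DIF replicate 3. The log2 ratio of ACT-11 to ACT-03 was 0.27 higher under negative DIF, with no overlap between treatments and an SD within treatments of 0.05. By an exact two-sided permutation test this ratio had p = 0.1, the smallest value that 3 arrays against 3 allow.

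EF1a (Solyc06g005060), the translation factor, and GAPDH (Solyc05g014470), the glycolytic enzyme, each had overlapping treatments. EF1a had log2 levels of 6.89, 7.22 and 7.33 in negative DIF replicates, against 7.44, 7.12 and 7.09 in positive DIF replicates. Its difference was -0.07 ± 0.21 (SE; 95% interval -0.57 to 0.43; adjusted p = 0.904, limma), and the sign was the opposite after quantile normalization (0.075) and in the deposited log2 table (0.057). GAPDH had log2 levels of 6.41, 6.63 and 6.65 in negative DIF replicates, against 6.50, 6.30 and 6.01 in positive DIF replicates, and a difference of 0.30 ± 0.20 (SE; 95% interval -0.20 to 0.79; adjusted p = 0.508, limma). Negative DIF replicate 1 was within the range of the positive DIF arrays for GAPDH.

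Of the 4 remaining genes, SAND, TIP41 and CAC overlapped between treatments and Expressed did not. SAND (Solyc03g115810) had log2 levels of 2.51, 2.38 and 2.67 in negative DIF replicates, against 2.44, 2.55 and 2.55 in positive DIF replicates. Its positive DIF arrays lay inside the range of its negative DIF arrays, and the difference was 0.0043 ± 0.17 (SE; 95% interval -0.41 to 0.42; adjusted p = 0.992, limma). This interval still allows a change to between 0.751-fold and 1.34-fold. TIP41 (Solyc10g049850) had log2 levels of 3.83, 3.81 and 3.98 in negative DIF replicates, against 3.84, 3.67 and 3.47 in positive DIF replicates, a difference of 0.22 ± 0.18 (SE; 95% interval -0.23 to 0.66; adjusted p = 0.612, limma). CAC (Solyc08g006960) had log2 levels of 3.12, 3.42 and 3.39 in negative DIF replicates, against 3.26, 3.28 and 2.93 in positive DIF replicates, a difference of 0.15 ± 0.19 (SE; 95% interval -0.32 to 0.62; adjusted p = 0.777, limma). For TIP41 and CAC a single positive DIF array, replicate 3, was the lowest of the 6. The differences of GAPDH, TIP41 and CAC were above 0 in all settings run other than scaling on UBI3. Their size depended on positive DIF replicate 3, without which GAPDH was at 0.16, TIP41 at 0.12 and CAC at 0.040. CAC was also at 0.10 without negative DIF replicate 2, and 0.25 without negative DIF replicate 1.

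Expressed (Solyc07g025390) had a signal near the 75th percentile of each array. Its log2 levels were -0.04, 0.14 and 0.21 in negative DIF replicates, against -0.19, -0.35 and -0.35 in positive DIF replicates. Negative DIF was the higher without overlap at this scaling, although the spread within treatments was the second smallest of the 11 probes (SD 0.12). The difference was 0.40 ± 0.17 (SE; 95% interval -0.02 to 0.82; adjusted p = 0.284 in limma, and 0.058 before adjustment). Its direction was the same in all settings run other than scaling on UBI3, where the difference was -0.11. Within the shared slide, negative DIF replicate 3 was 0.51 above the mean of the positive DIF arrays.

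The order of stability, by the SD over the 6 arrays with no test, was SAND (0.10), TIP41 and CAC (0.18 each), ACT-11 and EF1a (0.19 each), Expressed and GAPDH (0.24 each), ACT-03 (0.28), UBI3 probe 2 (0.33), UBI3 probe 1 (0.37) and TUB (0.45). The SDs of TIP41, CAC, ACT-11 and EF1a lay between 0.177 and 0.193, and neighbours in this order were not tested against each other. The first place of SAND holds for the scaling of the main fit and was not kept with the other scalings given below. Among the probes well above background on all 6 arrays, 2.27% had a lower SD than SAND, 47.2% than UBI3 probe 2, 54.2% than UBI3 probe 1 and 65.4% than TUB. UBI3 and TUB thus varied about as much as a typical well measured probe. The median SD was 0.24 for the 11 probes and 0.34 for all 25326 such probes, and 9 of the 11 lay below the median of all such probes. With only the spread within treatments, where the treatment does not count, the median SD was 0.18 for the 11 probes and 0.27 for all such probes, and 10 of the 11 lay below that median. The absolute difference between treatments had a median of 0.30 in the 11 probes and 0.34 in all such probes. The 11 probes were therefore quieter than the typical probe between replicates by more than they were between treatments, a contrast that was not tested. All of them other than Expressed were bright, at percentile 92.6 or higher of all probes on every array, and Expressed was at 71.9 to 76.8. The probes they were set against were not matched for brightness, and whether the smaller spread goes with brightness was not tested.

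The order depended on how stability was measured. geNorm M, the mean SD of a gene's log2 ratios to the other reference genes, needs no scaling between arrays. Over the 10 genes, with UBI3 as the mean of its probes, it put TIP41 first (0.236), EF1a next (0.238) and SAND in place 7 (0.29), with UBI3 in place 9 (0.37) and TUB last (0.48). Taken over the 11 probes, which counts UBI3 double, it also put TIP41 first and TUB last, with CAC next to TIP41. Over 16 settings, TIP41 ranked between 1 and 5, CAC between 2 and 5 and ACT-11 between 2 and 6. SAND ranked between 1 and 7 and EF1a between 1 and 8. SAND was in place 4 in the deposited log2 table, 5 after quantile normalization and 6 scaled on the mean of the 10 genes. By geNorm M over the 11 probes it was in place 7, as over the 10 genes. In all remaining settings, the main one included, SAND was first. Its first place thus depended on the main scaling between arrays. TUB ranked between 9 and 11. In the 13 settings that hold both UBI3 probes, probe 1 ranked 10 or 11 and probe 2 between 7 and 10, and in the other 3, with 1 value per gene, UBI3 was in place 9 of 10.

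The replicates of a treatment ranked alike for many of the genes. The mean of the 10 genes' log2 levels was 4.22, 4.38 and 4.44 in negative DIF replicates 1 to 3, against 4.52, 4.27 and 4.19 in positive DIF replicates 1 to 3. Positive DIF replicate 1 was the highest of its treatment in 9 of the 11 probes and positive DIF replicate 3 the lowest in 7. Likewise, negative DIF replicate 3 was the highest of its treatment in 8 probes and negative DIF replicate 1 the lowest in 7. The 75th percentile that scaled them moved as well, with processed signals of 2417, 1900 and 1572 in negative DIF replicates and 1481, 1553 and 1475 in positive DIF replicates. Whether these shifts come from the percentile or from the RNA was not tested.

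Ratios within an array do not depend on this scaling. Of the 55 pairs among the 11 probes, 32, or 58.2%, had ratios that did not overlap between treatments, against 35.7% of all pairs of probes well above background on all 6 arrays. The 55 pairs share probes and are not independent, and 1 of the 32 is UBI3 probe 1 against UBI3 probe 2, which differed by only 0.08. With 1 value per gene, 27 of 45 pairs did not overlap. After the pair of UBI3 probes, the most constant ratios were ACT-11 to EF1a (SD 0.08 over the 6 arrays, difference -0.09) and TIP41 to GAPDH (SD 0.10, difference -0.08), and both overlapped between treatments. The largest difference was in UBI3 probe 1 against TUB, whose log2 ratio was 3.04, 2.96 and 2.59 in negative DIF replicates, against 1.57, 1.75 and 1.57 in positive DIF replicates. It was 1.23 higher under negative DIF, or 2.35-fold, with an exact permutation p of 0.1, the smallest possible. The ratio of UBI3 probe 1 to ACT-03 was 0.99 higher (1.98-fold) and that of Expressed to TUB 1.08 higher (2.12-fold), also without overlap. Such ratios show unequal change and not which member of a pair changed.

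**Figure D2:**
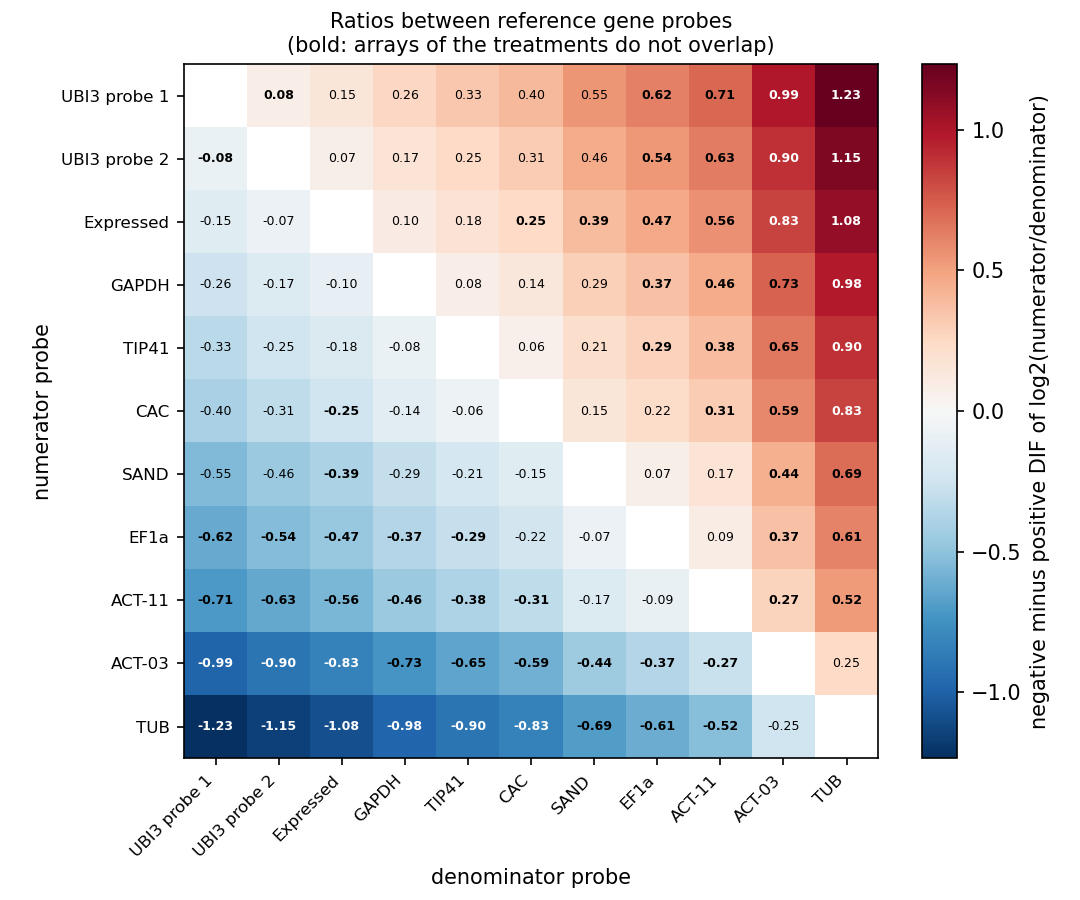
Difference between treatments, negative minus positive DIF, in the log2 ratio of each pair of reference gene probes, with the numerator down the side and the denominator along the bottom. Bold values mark the 32 of 55 pairs in which the arrays of the treatments do not overlap, and the corners hold UBI3 probe 1 against TUB, at 1.23 or -1.23.

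Scaling on reference genes in place of the 75th percentile moved all 11 differences by the same amount. Quantile normalization did not, with EF1a going up from -0.07 to 0.075 and UBI3 probe 2 down from 0.47 to 0.37. With each array scaled on the mean of its UBI3 probes in place of the 75th percentile, the median difference of all 43803 probes shifted by -0.51, to -0.43, and the differences of UBI3 probe 2 (-0.042), Expressed (-0.11), GAPDH (-0.21), TIP41 (-0.29), CAC (-0.36) and SAND (-0.50) all lay below 0. TUB then stood at -1.19 ± 0.23 (SE; adjusted p = 0.0527, limma) and ACT-03 at -0.94 (adjusted p = 0.080). No reference gene passed the adjusted threshold in that fit either, where 2.24% of all probes did. Over all probes, that scaling gave 109 higher and 874 lower at the adjusted threshold, 88.9% lower, against 186 higher and 217 lower, 53.8% lower, with the 75th percentile. The 75th percentile split was itself uneven between arrays left out, at 427 higher and 140 lower, 24.7% lower, without negative DIF replicate 3. Scaling on the mean of the 10 genes gave 108 higher and 156 lower, 59.1% lower, and a median difference of 0.05, against 0.07 with the 75th percentile.

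**Figure D3:**
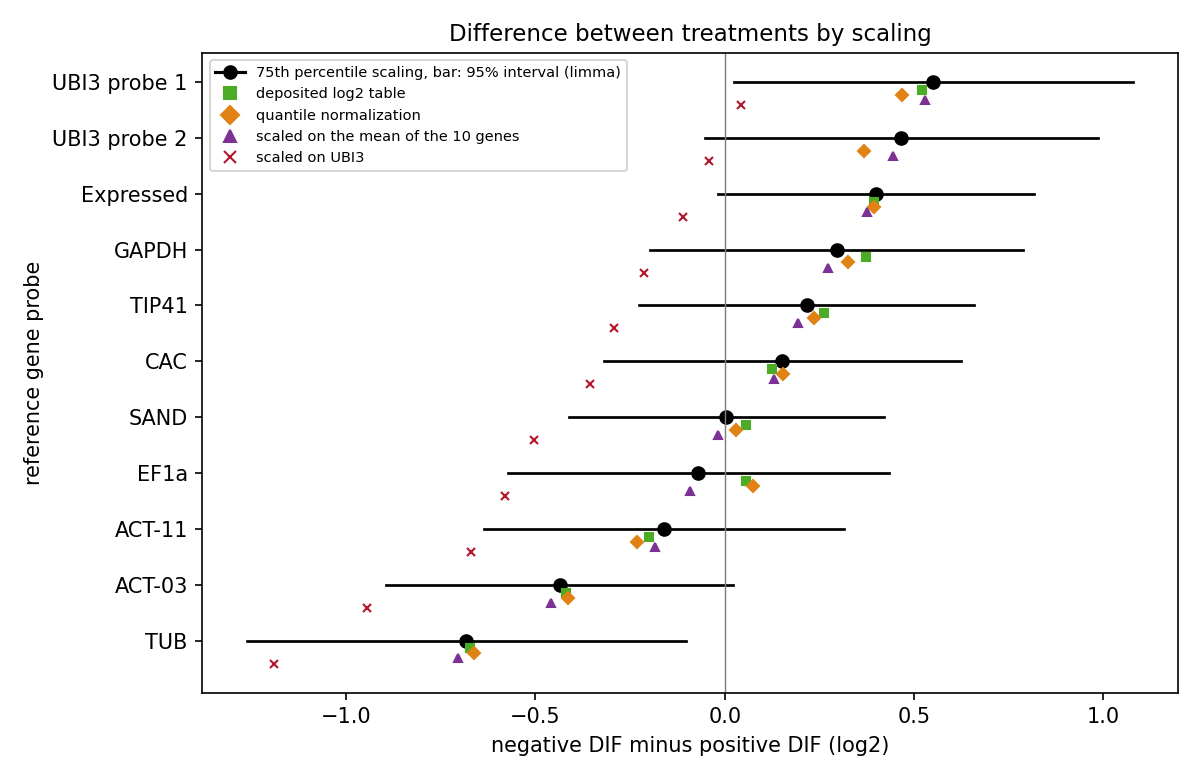
Difference in log2 signal, negative minus positive DIF, of each reference gene probe under 5 ways of scaling, with the 95% interval from limma for the 75th percentile scaling only. The deposited table has a single row for UBI3, drawn with probe 1. Scaling on UBI3 puts 9 of the 11 probes further down and below 0 (UBI3 probe 1, at 0.042, and probe 2, at -0.042, average 0 by construction), whereas the 4 other ways lie close together and differ in sign only for EF1a and SAND.

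The genes that the study had measured by real-time PCR relative to UBI3 were read from the arrays and set against each reference gene in turn. All but SlPIF4 had been chosen by the study as differentially expressed on these same arrays. Their direction and separation here were partly fixed by that choice. For each of these 8 genes the value moved by 1.19 log2 units between the extreme denominators, with UBI3 giving the lowest value and TUB the highest, since the span is set by the references alone. SlTAA1, an auxin synthesis gene, had no array on which it was well above background, and no fold is given for it. SlSAUR47, an auxin-responsive gene, and SlXTH2, a cell wall enzyme gene, stayed below 0 and without overlap between treatments relative to all 10 references. Of all pairs of probes well above background on all 6 arrays, 35.7% had ratios without overlap. SlSAUR47 probe 1 was at -2.49 relative to UBI3 and -1.30 relative to TUB, and probe 2 at -2.55 and -1.36. SlXTH2 was at -5.49 relative to UBI3 and -4.30 relative to TUB.

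For 4 other genes the overlap between treatments depended on whether TUB was the denominator. SlGA20ox1, a gibberellin synthesis gene, was at -1.64 relative to UBI3, without overlap, and at -0.45 relative to TUB, with overlap. SlYUC, an auxin synthesis gene, was at -1.67 and -0.48 with the same denominators, and the expansin genes SlEXP1 and SlEXP2, which loosen cell walls, at -2.01 and -0.81 and at -1.51 and -0.32. In the study's real-time PCR, relative to UBI3, all 4 were lower in epicotyls under negative DIF. On the arrays each of them overlapped between treatments only relative to TUB among the 10 references. With SAND as the denominator the values were near those of the 75th percentile, for instance -1.13 for SlGA20ox1 on both. This is arithmetic, since dividing by SAND subtracts its own difference of 0.0043 from every gene.

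SlPIF4, which encodes a light- and temperature-responsive transcription factor, was the gene whose sign turned with the reference. Relative to UBI3 its log2 ratios were -4.14, -4.21 and -3.86 in negative DIF replicates, against -4.10, -3.79 and -3.68 in positive DIF replicates. These overlapped, with a difference of -0.21 and an exact two-sided permutation p of 0.2. Relative to Expressed the difference was -0.10, relative to GAPDH 0.00077 and relative to SAND and TUB 0.29 and 0.98. With the 75th percentile it was 0.30 (95% interval -0.11 to 0.70, adjusted p = 0.408 in limma), without overlap between treatments. Such non-overlap was found in 35.7% of the probes well above background on all 6 arrays. In the study's real-time PCR, relative to UBI3, SlPIF4 did not respond to DIF.

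**Figure D4:**
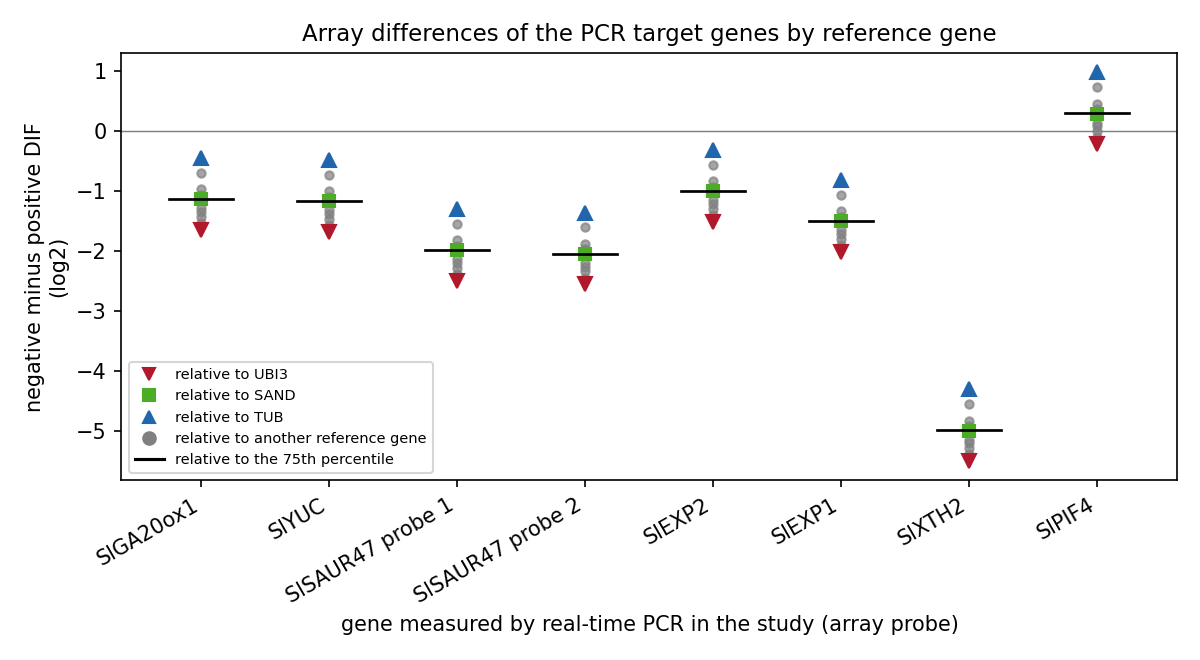
Difference between treatments, negative minus positive DIF, in the array log2 signal of 7 of the study's real-time PCR genes (8 probes; SlTAA1 is left out as not well above background), relative to each of the 10 reference genes. Red triangles are relative to UBI3, green squares to SAND, blue triangles to TUB, grey points to the other references, and black bars to the 75th percentile; each gene spans 1.19 log2 units, and only SlPIF4 lies on both sides of 0.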

How the data were processed

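For each array the authors deposited spot intensity values from Agilent Feature Extraction 10.10.1.1, background-subtracted within the array, and for the series a table of deposited log2 values for 33614 genes, whose normalization is not given in the sources used here. The heading of that table names the opposite treatments to the arrays its columns match by rank, and the columns were read by the match. No sequence or gene description was at hand for these identifiers, so gene families and tissue markers were not checked.

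Processed signals were put on the log2 scale and each array's 75th percentile was subtracted. Treatments were compared with limma 3.58.1 in R 4.3.3 (lmFit, eBayes, treatment only), Benjamini-Hochberg adjusted over 43803 probes, threshold 0.05. The software's error model sets 10% per spot, or 0.14 in log2. Single ratios had an exact permutation test. Probes were kept apart, except that UBI3 as denominator was the mean of its probes. The test was checked on simulated data. Named genes were the 10 members, the study's PCR genes and the 3 genes nearest to UBI3. The members and lists were chosen with earlier results of these data known. Python 3.11.15 was used for summaries. Alternatives covered normalization, background, filter, moderation, slide, pairing, left-out replicates, scaling, test and stability measure.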

Additional observations from a re-analysis of the deposited data

How the results depend on the processing

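None of the 11 probes passed the adjusted threshold under any of 17 alternatives, of which slide as a fixed block, the replicate block and leaving out negative DIF replicate 1 called 0 of all probes, so that 0 was fixed there. Leaving out negative DIF replicate 2, positive DIF replicate 3 or positive DIF replicate 2 called 1, 2 and 6 of all 43803 probes. Student's t-test called 29. A 0 among 11 probes says little in these alternatives either. At an unadjusted p under 0.05, 8 of 11 passed after quantile normalization (22.0% of all probes), 4 by Student's t-test (17.9%) and 0 with slide as a fixed block (7.38%), 0 being the lowest and 8 the highest count. Of 175 alternative differences, 160 kept their direction and their side of the threshold and 15 changed sign. Scaled on UBI3, UBI3 probe 2 was at -0.042, TIP41 at -0.29, CAC at -0.36, SAND at -0.50, Expressed at -0.11 and GAPDH at -0.21. EF1a was at 0.075 after quantile normalization, 0.057 in the deposited table and 0.11 with slide as a fixed block, and between -0.16 and 0.057 when each replicate was left out. SAND was at -0.042 with slide as a random block and -0.018 scaled on the mean of the 10 genes, and between -0.070 and 0.075 when each replicate was left out. The causes of these turns were not tested, other than that UBI3 scaling subtracts the difference of UBI3 from each gene. The 5 most stable probes kept 5 or 4 members under 14 of 15 alternatives, and 3 by the SD within treatments. geNorm M over the 10 genes was added after seeing the data. Leaving out each replicate gave UBI3 probe 1 between 0.45 and 0.72 and TUB between -0.85 and -0.48. Of 63 alternatives for the PCR genes relative to UBI3, 62 moved by less than the spread between replicates. Where a replicate was left out, this was fixed by arithmetic and says nothing on robustness. Only normexp and the deposited table could move a value by more. SlSAUR47 probe 2 did so, at -2.24 with normexp, which shifted the median of all probes by -0.27. Replicate numbers are shared by both treatments. The deviations of same-numbered arrays from their treatment means correlated by only 0.006, 0.04 and 0.22 over probes. Those of differently numbered arrays ranged from -0.35 to 0.32, so same-numbered arrays were not taken as pairs. With a replicate block 0 of the 11 probes passed, adjusted (0 of all probes) or not (16.4% of all probes).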

Other observations

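The 3 genes whose arrays followed UBI3 most closely, by the SD over the 6 arrays of the log2 ratio to the mean of the UBI3 probes, were Solyc01g098100 (0.03), Solyc03g112360 (0.04) and Solyc06g034380 (0.04), among 25324 probes well above background on all arrays. Their own differences, negative minus positive DIF, were 0.52, 0.57 and 0.55 relative to the 75th percentile. These probes were picked from the same 6 arrays, so their likeness to UBI3 is a description.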
